A study of Mus musculus with 8 samples.

Results

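The genes described here are Myc, Ccnd1, Pim1, Mcl1 and Bcl2l1, 5 genes of cell growth and cell survival, each with the sites of phosphorylated STAT3 listed in a fixed stretch of the mouse genome around it. The stretches, called windows below, were 110 to 150 kb long on the mm9 build, and a site belonged to a gene when it overlapped the gene's window by 1 bp or more. They held 10 of the 5343 distinct sites with an exact position in the 6 peak lists of the study. In that study, mouse embryonic fibroblasts of the genotype STAT3-/- were made to re-express STAT3α or STAT3β, and DNA bound by STAT3 phosphorylated at its activating tyrosine was recovered by chromatin immunoprecipitation and sequenced (ChIP-seq). All groups carried the STAT3 deletion and a construct that 1 nM 4-hydroxytamoxifen induces, given for at least 48 h, and all were kept without serum for 16 h. The 3 STAT3α and the 3 STAT3β samples were taken after 0, 30 or 180 min of human oncostatin M at 10 ng/mL. Each spliceform was 1 inducible cell line, and the sources used here do not say whether that line was a clone. A difference between spliceforms therefore cannot be told apart from one between lines. The reads of duplicates were merged into 1 list per spliceform and time, so no value has a replicate error and no difference between groups could be tested. Peak lists hold no expression, so the fibroblast label could not be checked with marker genes. A further 2 samples, input DNA of each line, were not analysed here.

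Oncostatin M is a cytokine of the interleukin-6 family. Its receptor activates JAK kinases, which phosphorylate STAT3, and STAT3 dimers then enter the nucleus and bind DNA. STAT3α has a C-terminal transactivation domain that STAT3β lacks. Genes that drive growth (Myc, Ccnd1, Pim1) and genes that block apoptosis (Mcl1, Bcl2l1) are among the best known STAT3 targets, above all in cancer cells and in cytokine signalling.

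At 30 min the STAT3β list held a site in the windows of 5 of the 5 genes, and the STAT3α list in those of 3, Pim1, Mcl1 and Bcl2l1. As a background, windows of the same length were laid end to end over the listed span of each chromosome. A STAT3β site of 30 min lay in 12.6% of such windows of 110 kb, 13.4% of those of 120 kb and 16.1% of those of 150 kb, and a STAT3α site in 11.9%, 12.6% and 15.2%. The genes were chosen with results of these data known, and the tiled windows include gene-poor stretches, so these shares are no test of the 5 genes. The Myc and Ccnd1 windows had no listed STAT3α site at any time. This contrast depends on the size of the windows. With 50 kb added on both sides, the lists held 15 STAT3α and 15 STAT3β sites, in place of 7 and 9, and STAT3α reached 4 genes, Myc among them. In the middle part of the windows, with 0.25 of the length left out on both sides, STAT3α had a site in 1 gene and STAT3β in 4. Mcl1 stood at the top with 4 sites, each in both 30 min lists, and it held the only site of the 5 genes that was listed at 180 min, in STAT3β cells, where 0.507% of tiled 110 kb windows held a site at that time. Pim1 had 3 sites, and Myc, Ccnd1 and Bcl2l1 had 1 each. Without cytokine none of the 5 windows held a listed site in either line.

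**Figure D1:**
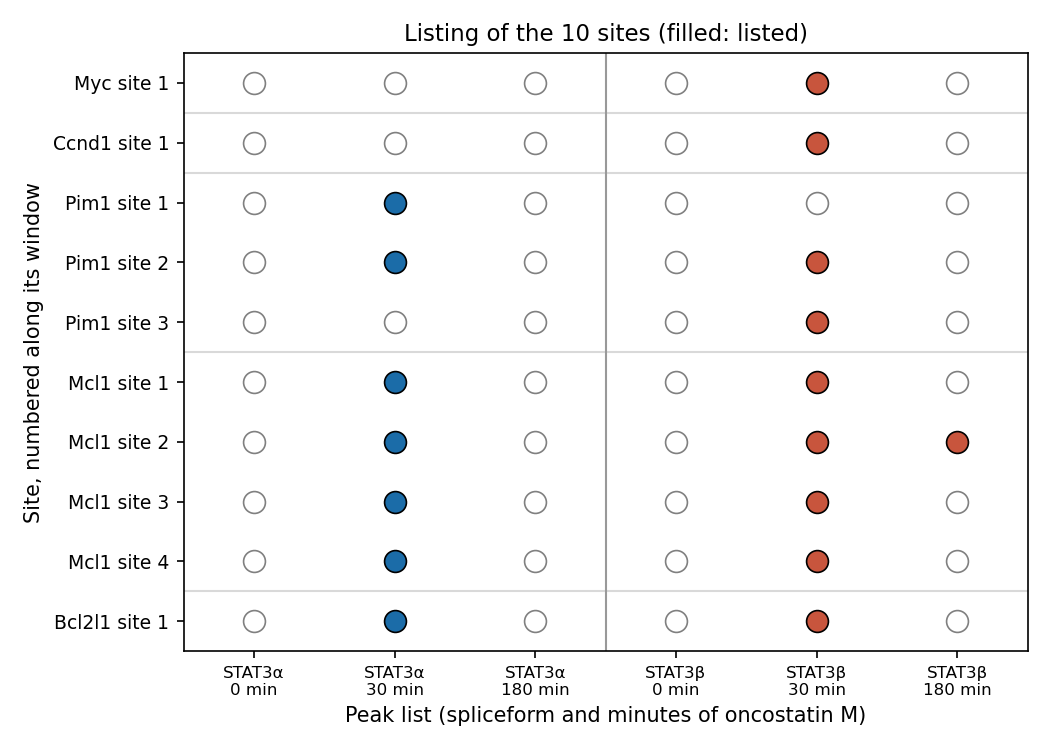
The 10 sites (rows, numbered along each gene's window) against the 6 peak lists (columns, spliceform and minutes of oncostatin M). A filled circle marks a listed site (blue STAT3α, red STAT3β) and an open circle a site that is not listed. The 0 min columns are empty, the 30 min columns hold 7 (STAT3α) and 9 (STAT3β) sites, and Mcl1 site 2 is the only one filled at 180 min.

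Mcl1 and Pim1 were the windows with more than 1 site, so the sequences before their first transcription starts are shown. Both come from the RefSeq promoter table of GRCm38.p6, a later build than the mm9 of the peak lists, and cannot be placed against the listed sites. The Mcl1 stretch is on the plus strand at chr3:95658471-95658725 and runs from 250 bases before the start to 5 after it. The Pim1 stretch is on the plus strand at chr17:29490535-29490784 and ends at the start. Capitals mark letters of the form TTANNNGAA.
Mcl1: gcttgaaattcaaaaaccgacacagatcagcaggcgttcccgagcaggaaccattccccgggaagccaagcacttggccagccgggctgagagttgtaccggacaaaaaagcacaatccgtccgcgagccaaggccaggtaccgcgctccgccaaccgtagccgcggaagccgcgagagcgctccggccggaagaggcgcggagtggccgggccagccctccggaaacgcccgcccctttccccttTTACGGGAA
Pim1: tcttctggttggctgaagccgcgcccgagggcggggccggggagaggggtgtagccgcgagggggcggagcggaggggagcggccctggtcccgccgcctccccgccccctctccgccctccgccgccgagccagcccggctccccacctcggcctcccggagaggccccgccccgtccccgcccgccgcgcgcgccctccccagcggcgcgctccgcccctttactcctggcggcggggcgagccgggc
Each entry of the table was searched over its whole 300 bases, from 250 before to 50 after the start. The table held promoters of 3 of the 5 genes, 6 in all, of which Pim1 had 2, Mcl1 1 and Bcl2l1 3. The STAT recognition letters TTCNNNGAA, which read the same on both strands, were in none of the 6 and in 8.3% of the 32851 promoters of the table. The shorter form TTCNNGAA, also the same on both strands, was likewise in none of the 6 and in 8.52% of all. After the Mcl1 sequence had been seen, TTANNNGAA was searched on both strands. It occurred in the Mcl1 promoter as TTACGGGAA, across the start, in none of the other 5, and in 10.4% of all promoters. The 3 motifs share letters but cannot match at the same position on the same strand. Of the 250 bases before the start, 64.4% were G or C in Mcl1 and 82.4% in this Pim1 promoter, against a median of 52.4% in the table. The other Pim1 promoter had 48.0%, and the Bcl2l1 promoters had 48.4%, 53.2% and 47.6%. A match or its absence is a description of these letters only.

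Among the growth genes, Myc encodes a transcription factor that raises the expression of genes for ribosomes and metabolism. Its window, chr15:61760000-61880000, held 1 site, at chr15:61816845-61817244, 3.0 kb before the window's middle. Of the 6 lists, only that of STAT3β at 30 min held it. The nearest site of either spliceform lay 93.9 kb away, at chr15:61910698-61911097, outside the window by 30.7 kb and in both 30 min lists. The Myc window thus held a STAT3β site, and the nearest shared site lay beyond its border. At 180 min the nearest listed peak lay 1.95 Mb beyond the window in STAT3β cells and 10.5 Mb beyond it in STAT3α cells.

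Ccnd1 encodes cyclin D1, the partner of CDK4 and CDK6 in the passage from G1 to S phase. Its window, chr7:152060000-152180000, also held a single STAT3β site of 30 min, at chr7:152127491-152127890. This was the most isolated of the 10 sites. The nearest STAT3α site was 173.0 kb away and the nearest other STAT3β site 470.9 kb. The site closest to the window on the outside, at chr7:151954517-151954916, was in the STAT3α list alone and lay 105.1 kb before it. Neither 30 min list had a peak between the window and the end of the chromosome.

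Pim1 encodes a serine/threonine kinase that favours survival and cell cycle progression. Its window, chr17:29580000-29690000, held 3 sites in the 30 min lists and none at 0 or 180 min. The first, at chr17:29588246-29588645, was in the STAT3α list alone. The second, at chr17:29606831-29607230, was in both lists, and the third, at chr17:29629150-29629549, in the STAT3β list alone. Their centres were 18.6 kb and 22.3 kb apart, so each list had 2 of the 3 sites and the middle one was common to both. A further pair lay just before the window. The site at chr17:29576992-29577391 was in the STAT3α list alone, 2.6 kb before it, and the site at chr17:29578950-29579349 in the STAT3β list alone, 0.7 kb before it. After the window, the nearest site of both lists was 451.6 kb away.

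Of the survival genes, Mcl1 encodes a short-lived member of the BCL2 family that holds back the effectors of apoptosis at the mitochondrion. Its window, chr3:95410000-95520000, held 4 sites, at chr3:95454643-95455042, chr3:95462428-95462827, chr3:95478121-95478520 and chr3:95506033-95506432. Both 30 min lists held each of them. The distances between neighbouring centres were 7.8, 15.7 and 27.9 kb, and the 4 sites spanned 51.8 kb. The second of them, 2.4 kb before the window's middle, was listed again at 180 min for STAT3β and not for STAT3α. The next 180 min peaks on that chromosome lay 30.1 Mb before and 12.0 Mb after the window in both lines. The row of shared sites went on past the border of the window, with chr3:95529883-95530282 and chr3:95530507-95530906, both in both 30 min lists. Together these were 6 consecutive 30 min sites within 76.3 kb, each listed for both spliceforms.

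Bcl2l1 encodes BCL-XL, another BCL2 family member that blocks apoptosis. Its window was the longest, chr2:152560000-152710000, and held 1 site, at chr2:152567239-152567638, in both 30 min lists. It lay close to the border, 7.2 kb after the start of the window and 142.4 kb before its end. The nearest other STAT3α site was 14.4 kb away, outside the window at chr2:152552806-152553205 and not in the STAT3β list. The nearest other STAT3β site was 104.9 kb away. On the far side, a site in both lists lay 19.8 kb beyond the window, at chr2:152729806-152730205.

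**Figure D2:**
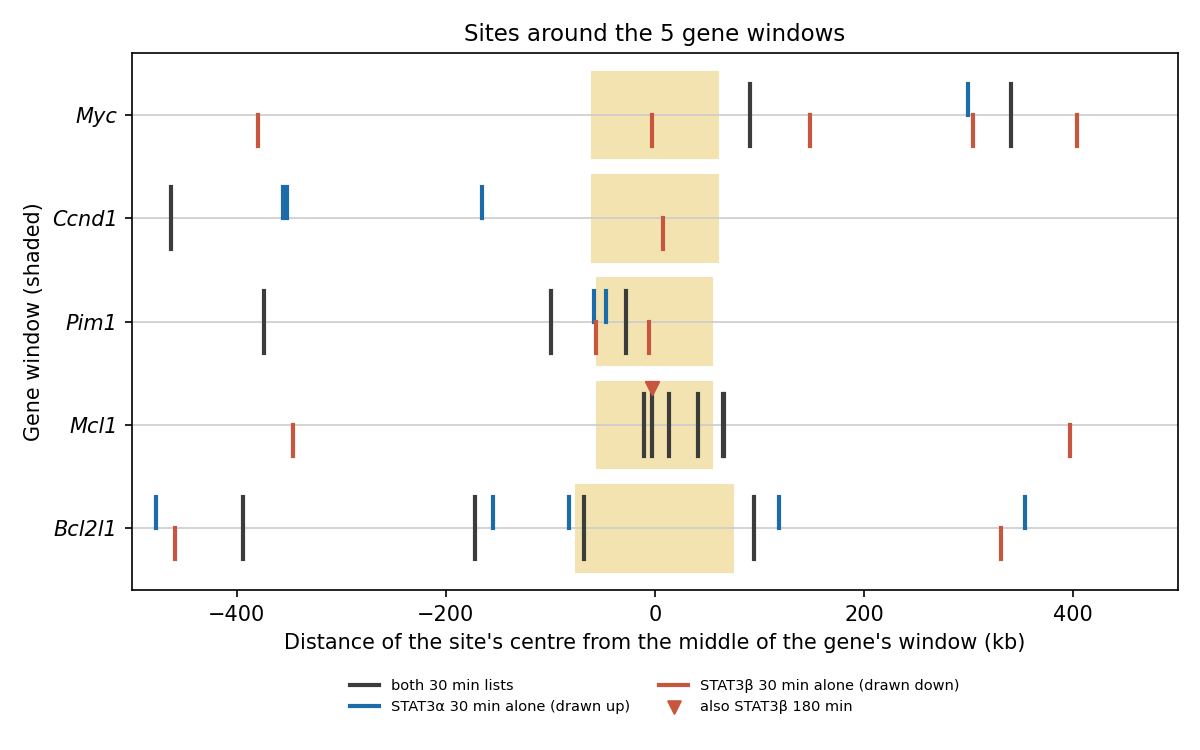
Sites of the 30 min lists within 500 kb of the middle of each gene's window (shaded), by the distance of the site's centre in kb. Black lines are sites of both lists, blue lines drawn upwards STAT3α alone, red lines drawn downwards STAT3β alone, and the triangle marks the site also listed for STAT3β at 180 min. The Mcl1 window holds 4 shared sites, the Myc and Ccnd1 windows 1 STAT3β site each, and the Bcl2l1 site lies near the border of its window.

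No gene annotation of mm9 was used here, so a site is tied to a gene by its window and not by its distance to a start, an exon or an intron. Other genes lie close by. In the order of the GRCm38.p6 gene table, the protein-coding neighbours of Mcl1 are Ensa before it and Adamtsl4 after it, those of Pim1 are Fgd2 and Tmem217, and those of Bcl2l1 are Cox4i2 and Tpx2. LTO1 and Tpcn2 flank Ccnd1, and A1bg and Gsdmc flank Myc. Which of these genes a listed site may serve is not known from the lists.

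The spliceforms were compared at 30 min over all 10 sites. Of these, 6 were in both lists (60.0%, 95% exact binomial interval 26.2 to 87.8%), beside 42.7% of all 5338 sites of 30 min. A single one was in the STAT3α list only (27.1% of all sites) and 3 were in the STAT3β list only (30.2% of all). The interval treats the sites as independent, although 4 of the shared ones stood close together at Mcl1, and it holds no replicate error. It spans the share over all sites, and the count of shared sites is no result about these genes as a group. By gene, the 2 BCL2 family genes had 5 sites, each shared, of which 4 were those of Mcl1 and 1 lay near the border of the Bcl2l1 window. The 3 growth genes had 5 sites, of which 1 was shared. In windows widened by 50 kb on both sides the counts were 8 of 10 and 3 of 9, and within 500 kb of the middle of the Bcl2l1 window 4 of 11 sites were shared. The split between the groups was made after the data were seen and was not tested. It counts Pim1, which also favours survival, as a growth gene. Pim1 held 3 of the 5 growth gene sites, the only shared site among them. A site missing from a list may have been bound below the list's threshold, which no source used here states, and the libraries' depth is unknown.

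Single-list sites had neighbours of the other spliceform at varied distances. The STAT3β site of Myc was 93.9 kb from the nearest STAT3α peak, that of Ccnd1 173.0 kb and that of Pim1 22.3 kb. The median over the 1613 STAT3β-only sites was 110 kb, with quartiles of 28.4 and 302 kb. The STAT3α-only site of Pim1 was 9.3 kb from the nearest STAT3β peak, where the 1447 STAT3α-only sites had a median of 78 kb and a first quartile of 19.4 kb. Thus both single-list sites of Pim1 lay nearer to a peak of the other spliceform than 3 in 4 such sites, and those of Myc and Ccnd1 lay between the quartiles.

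Over time, the windows held 0 sites at 0 min, 7 at 30 min and 0 at 180 min in STAT3α cells, and 0, 9 and 1 in STAT3β cells. The 0 min lists give some positions only to the nearest Mb. The only such peak on a chromosome of the 5 genes was a STAT3α peak near 158 Mb on chromosome 2, at least 4.79 Mb from the Bcl2l1 window, so no rounded peak could fall in a window. Listing again at 180 min was rare in the whole data, at 0.940% of the STAT3α and 3.03% of the STAT3β sites of 30 min. Among the sites of these genes it was 0 of 7 for STAT3α and 1 of 9 for STAT3β (11.1%, interval 0.281 to 48.2%). Of the 2278 sites in both 30 min lists, 4.92% were listed at 180 min for STAT3β, as Mcl1 site 2 was, and 1.54% for STAT3α. The late lists were short, with 40 peaks for STAT3α and 120 for STAT3β, and 1 site among these genes gives no ground for a difference from the whole.

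Mcl1 and Pim1 were the genes with several sites, and the tiled windows give the background for those counts. Both genes were picked here for those counts, and the tiled windows include gene-poor stretches, so the shares are no test of them. Of the 23055 tiled windows of 110 kb, 15.9% had a site of either list. Of these windows, 1.51% had 3 or more sites of either list, as Pim1 had, and 0.486% had 4 or more, as Mcl1 had. With sites of both lists counted alone, 8.06% of these windows had 1 or more, as Pim1 had, and 0.0737% (17 windows) had 4 or more, as Mcl1 had. For Myc and Ccnd1 a single site was what 16.8% of 120 kb windows reached or passed, and for Bcl2l1 20.1% of 150 kb windows.

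**Figure D3:**
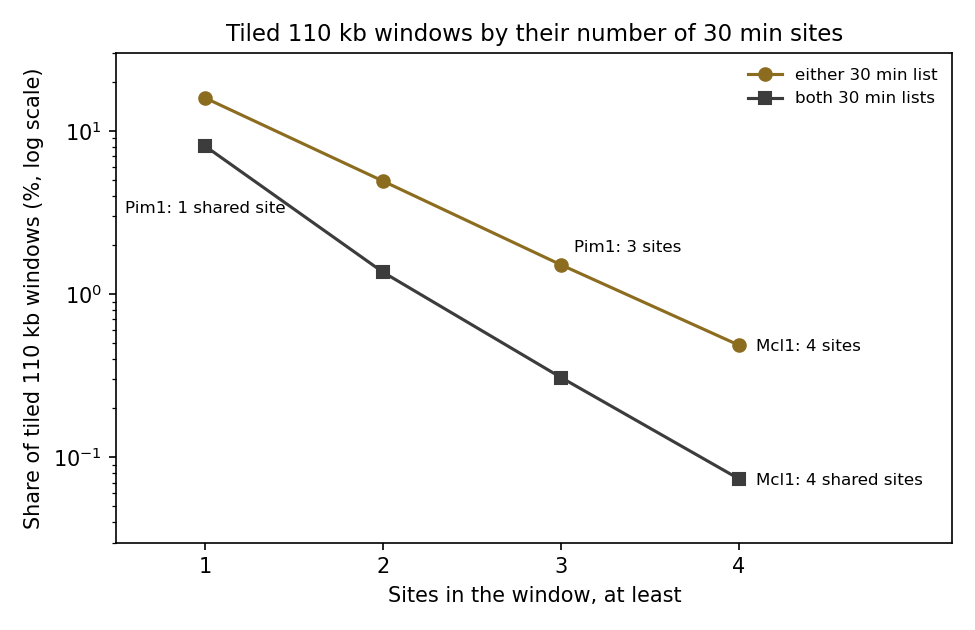
Share of 23055 tiled windows of 110 kb (percent, log axis) with at least 1, 2, 3 or 4 sites of 30 min, for sites of either list (circles) and sites of both lists (squares). The counts of the Pim1 and Mcl1 windows, which have that length, are written at the points they reach. The share falls from 15.9% at 1 site to 0.486% at 4 for either list, and from 8.06% to 0.0737% for both. Mcl1 and Pim1 were picked for their counts, so the shares are no test of them.

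The spacing of the Mcl1 sites was also set against that of other neighbouring sites. Of 5278 runs of 4 consecutive 30 min sites, 3.73% spanned 51.8 kb or less, while the median run spanned 719 kb. Among the 197 runs as short as this, 17 (8.63%) had each of their sites in both lists, the Mcl1 run among them. Of 5238 runs of 6 sites, 60 were no longer than the 76.3 kb of the stretch that passes the window's border, and 5 (0.0955%) of all runs were also shared throughout. Runs overlap each other, so these are counts and not independent events. The span limits were taken from the Mcl1 sites, and the stretch of 6 was drawn as far as sites stayed shared. The small shares are therefore no test of Mcl1. With these limits, the Mcl1 stretch was 1 of the 5 runs of 6 sites that were as short and shared throughout.

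Sites were denser in the window than around it at Mcl1 and Pim1. The Mcl1 window had 36.4 sites per Mb, against 4.49 in the rest of the 1000 kb around its middle and 2.4 along the chromosome. The Pim1 window had 27.3 sites per Mb, against 4.49 around it and 3.25 along the chromosome. Both genes were picked for the number of sites in their windows, and the chromosomes include gene-poor stretches, so these contrasts are no test of them. The values rest on few sites and on where the border was set. The nearest site outside lay 0.7 kb from the border at Pim1 and 9.9 kb from it at Mcl1. In contrast, the Myc window had 8.33 sites per Mb, which is a single site, against 7.95 around it and 3.55 along the chromosome. The Bcl2l1 window, also with a single site, had 6.67 sites per Mb, against 11.8 around it and 2.74 along the chromosome. Ccnd1 had 8.33 in the window, which is a single site, 4.55 or more around it and 1.33 along its chromosome. The value around Ccnd1 is a lower limit, because the chromosome may end within the counted stretch, whose 4 sites all lay before the window. A density from 1 site has no useful precision, so for Myc, Ccnd1 and Bcl2l1 the order of window and surroundings cannot be told.

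**Figure D4:**
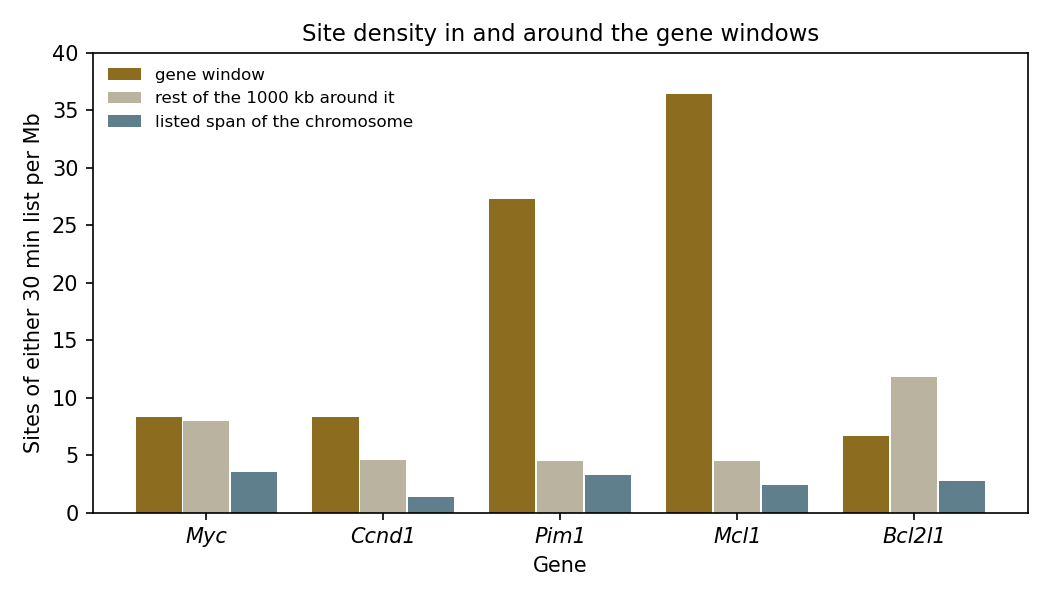
Sites of either 30 min list per Mb in each gene's window, in the rest of the 1000 kb around the window's middle and over the listed span of its chromosome, with bars from 0. The Mcl1 (36.4) and Pim1 (27.3) windows are above their surroundings (4.49 for both), while the windows of Myc, Ccnd1 and Bcl2l1 hold a single site each, so the height of their bars has no useful precision. The surroundings of Ccnd1 are drawn at their lower limit, 4.55. Mcl1 and Pim1 were picked for their counts, so their bars are no test of them.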

How the data were processed

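Each deposited peak list gives chromosome, start, end and name, with no score or read number, so sites could not be ranked. Per the submitters' processing notes, the build was mm9 and the tools included MACS2 2.1.1.20160309, HOMER 4.9, STAR 2.5.0a, Trim Galore 0.4.2 and bedtools. What each tool did, where the peak threshold lay and how input was used is not given in the sources used. Duplicates were merged, per the labels. Groups came from sample titles.

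Peaks overlapping by 1 bp or more were counted as 1 site. All 2288 sites in more than 1 list had identical coordinates, so the lists draw on shared regions. Starts count from 1. Windows were tiled from the first listed position of each chromosome. All sites that overlap a window are named. Motif search in the listed sites needs an mm9 genome and was not run. Overlap and tiling were tested on simulated lists. Intervals are 95% exact (Clopper-Pearson) and cover counting over sites only. They treat sites as independent, which neighbouring sites need not be. The genes, windows and comparisons were chosen with earlier results of these data known. The runs of consecutive sites, the surroundings of 500 kb on each side and the distances between single-list sites were added after the lists were seen. So were the motif TTANNNGAA and the split into BCL2 family and growth genes. Python 3.11.15, scipy 1.17.1 and matplotlib 3.10.9 were used.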

Additional observations from a re-analysis of the deposited data

How the results depend on the processing

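Of 58 alternative values for 26 results, 53 stayed within 1.5 times the count or within the interval of the share, and many of these are counts of 0 or 1 that had little room to move. Asking for an identical start and end could not change a share, because all sites in more than 1 list had identical coordinates. Shifts of the tiled windows concern the background and not the genes. The values that moved concern the size of the windows. With 50 kb added on both sides, the windows held 15 STAT3α and 15 STAT3β sites at 30 min, in place of 7 and 9, so the surplus of STAT3β sites was gone. Myc then had a STAT3α site and Ccnd1 still had none. In the middle part of each window, with 0.25 of the length left out on both sides, 3 STAT3α sites were left, in 1 gene, Mcl1. The number of STAT3β sites there was 6. In a comparison added after the data were seen, none of the 3 sites of the growth genes in that middle part was shared, against 1 of 5 in the whole windows. The share of sites in both 30 min lists was 57.9% in the wider windows, against 60.0%. Shifting the tiled windows changed their shares by at most 0.3 percentage points. No paired analysis was possible because each group has 1 list. Library depth is unknown, and a site absent from a list is not shown to be unbound.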

Other observations

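Beyond the windows, the surroundings of the 5 genes differed in which spliceform's list held more sites at 30 min. In the 880 kb around the Myc window there were 7 sites, of which 6 were in the STAT3β list and 3 in the STAT3α list. Around Ccnd1 the order was the other way, with 4 STAT3α and 1 STAT3β sites among 4, although the site inside the Ccnd1 window was in the STAT3β list alone. Around Bcl2l1, 10 sites were listed, 8 for STAT3α and 5 for STAT3β. Around Pim1 the lists had 3 sites each, and around Mcl1 there were 2 for STAT3α and 4 for STAT3β. Each value comes from 1 list per spliceform, and the differences were not tested. None of the sites in these surroundings was listed at 0 or 180 min.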
